A study of Mus musculus with 10 samples.

Results

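The genes described are the transcriptional end of the Hippo pathway in mouse embryonic fibroblasts (MEFs): the coactivators Yap1 and Wwtr1 (the gene of TAZ), the DNA-binding partners Tead1, Tead2, Tead3 and Tead4, and the target genes Ctgf, Cyr61, Ankrd1 and Amotl2. They are the rows of the deposited gene table with these symbols, and all 10 were found among its 52550 genes. MEFs are primary connective tissue cells grown from mouse embryos. The libraries came from C57BL/6 embryos of embryonic day 14, were used at passage 3, and fall into 2 groups that differ in the labels by sex alone, 5 male and 5 female. All cells grew in DMEM with 10% fetal bovine serum. Ribosomal RNA was removed from total RNA, and directional libraries were then sequenced on a NextSeq 500. The labels do not give the culture surface. They also leave unsaid whether each library stands for its own embryo or culture, and p-values here therefore reflect variation among libraries that could be technical.

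In the Hippo pathway a cascade of kinases phosphorylates YAP and TAZ and keeps them out of the nucleus. When the cascade is weak, as in spread cells on a rigid surface, YAP and TAZ enter the nucleus and activate genes through TEAD proteins, since they do not bind DNA themselves. CTGF and CYR61 are secreted matricellular proteins, ANKRD1 is an ankyrin-repeat protein of the nucleus and the sarcomere, and AMOTL2 is an angiomotin that binds YAP at junctions and actin. The RNA level of a coactivator says nothing of where its protein is in the cell.

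TEAD proteins recognise the 6-letter word GGAATG, which reads CATTCC on the other strand. The RefSeq promoter table (GRCm38.p6) held windows from 250 bases before to 50 after the start for 7 of the 10 genes, in 10 windows. The word was found on either strand in 8 of these windows and in 6 of the 7 genes, against 14.7% of 32851 windows of that length in the whole table. Windows of 1 gene overlap in part, so that both Wwtr1 windows hold the same word. A match of 6 letters is a description and not a binding site. No window was found for Ctgf, Tead1 and Tead4, and the Tead2 window did not hold these letters. The Ankrd1 window had 2 matches and 1 of the Tead3 windows had 3, whereas 1.36% of all windows had 2 or more. The 250 bases before the start are shown for the 3 target genes with a window, because their levels are the ones compared below; capitals mark the match.
Cyr61, minus strand, chr3:145649986-145650235: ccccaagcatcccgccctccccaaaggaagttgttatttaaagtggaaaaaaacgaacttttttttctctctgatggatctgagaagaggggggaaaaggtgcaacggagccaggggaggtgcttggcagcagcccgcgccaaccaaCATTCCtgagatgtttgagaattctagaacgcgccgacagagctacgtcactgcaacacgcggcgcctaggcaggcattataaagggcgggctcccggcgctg
Ankrd1, minus strand, chr19:36119845-36120094: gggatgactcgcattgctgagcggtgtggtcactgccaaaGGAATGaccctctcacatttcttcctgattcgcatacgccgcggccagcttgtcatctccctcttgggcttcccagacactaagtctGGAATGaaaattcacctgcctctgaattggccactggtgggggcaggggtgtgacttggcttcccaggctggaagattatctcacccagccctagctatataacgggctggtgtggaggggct
Amotl2, plus strand, chr9:102717554-102717803: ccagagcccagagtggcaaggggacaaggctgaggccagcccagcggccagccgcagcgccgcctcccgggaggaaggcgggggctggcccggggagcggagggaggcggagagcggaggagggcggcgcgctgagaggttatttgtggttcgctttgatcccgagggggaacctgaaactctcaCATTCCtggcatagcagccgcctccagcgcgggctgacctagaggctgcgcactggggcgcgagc
Counted from the start, a match began at -103 for Cyr61, at -210 and -123 for Ankrd1, and at -65 for Amotl2. The Yap1 window held a match at -141.

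In mm10 the coactivator genes lie at chr9:7931999-8004596 (Yap1) and chr3:57455649-57575910 (Wwtr1). The TEAD genes lie at chr7:112679318-112906807 (Tead1), chr7:45215753-45233644 (Tead2), chr17:28331671-28350817 (Tead3) and chr6:128224288-128300823 (Tead4). The target genes lie at chr10:24595442-24598683 (Ctgf, now named Ccn2), chr3:145646976-145649981 (Cyr61, now Ccn1), chr19:36111961-36120099 (Ankrd1) and chr9:102716672-102733418 (Amotl2). The printed Amotl2 and Ankrd1 sequences lie inside these ranges, because their RefSeq starts differ from the annotated ends of the genes, and the Cyr61 sequence lies before its annotated gene but does not touch it. Annotated genes on the opposite strand overlap Yap1, Wwtr1, Tead1, Tead2, Tead4 and Ctgf, and their reads could not be separated if the counting did not use strand.

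Unique gene reads, which are reads placed at 1 position and inside a gene's exons or introns, came to between 30662616 and 45859721 per library. Of all genes, 16602 passed the filter on low counts, and all 10 described here were among them. Fibroblast markers were present in every library, with Col1a1, a chain of type I collagen, at 1407 ± 119 RPKM and Fn1, fibronectin, at 1144 ± 109 RPKM (SD, n = 10). RPKM scale unique exon reads by exon length and library size, and are used to compare levels between genes. CPM scale unique gene reads by library size with TMM factors, and are used to compare 1 gene between libraries. The male and the female library numbered 5 stood apart for several target genes, and values that rest on them are given with and without them. The labels do not say that a shared number marks a shared batch.

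Tead1 was the main TEAD transcript in these fibroblasts. Its level was 66.4 ± 2.12 RPKM (SD, n = 10), between 63.0 and 69.6, which is percentile 96.5 among the tested genes. Tead1 made up 68.6% ± 1.63 of the summed TEAD RPKM, and its share lay between 66.5% and 71.4%. Tead2 was at 12.8 ± 1.33 RPKM and Tead3 at 12.3 ± 1.19 RPKM, which gave shares of 13.2% and 12.7%. Tead4 was lowest, at 5.30 ± 1.14 RPKM and 5.47% of the sum. Tead1 was higher than Tead2 in 10 of 10 libraries, by a mean log2 ratio of 2.38 (two-sided exact permutation test by sign flips, adjusted p = 0.0034 over 7 neighbours in the order, where the smallest unadjusted p that flips can give is 0.00195). Tead2 and Tead3 did not differ beyond their spread, with Tead2 higher in 6 of 10 libraries and a log2 ratio of 0.06 ± 0.19 (SD; exact permutation test, adjusted p = 0.326). Tead3 stood above Tead4 in 10 of 10 libraries, by 1.23 ± 0.28 on the log2 scale (exact permutation test, adjusted p = 0.0034). Counting only reads across exon junctions, per junction of the longest coding transcript, left Tead1 at 66.4% of the TEAD sum and put Tead2 above Tead3 by 0.34 on the log2 scale (exact permutation test, adjusted p = 0.0039).

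Both coactivators lay below Tead1 in level per length and were among the steadiest of the measured genes. Wwtr1 was at 39.2 ± 2.50 RPKM and Yap1 at 28.1 ± 1.29 RPKM (SD, n = 10), at percentiles 93.2 and 90.1 of the tested genes. By RPKM Wwtr1 was higher in 10 of 10 libraries, by 0.48 ± 0.14 on the log2 scale (exact permutation test, adjusted p = 0.0034). By reads per junction Yap1 was higher in 10 of 10, with a log2 ratio of Wwtr1 to Yap1 of -0.41 (exact permutation test, adjusted p = 0.0023). The order of these 2 genes therefore depended on the measure. Their summed RPKM lay between 67.4 and 71.2 in males and between 64.2 and 67.8 in females. Between libraries of 1 sex, the SD of log2 CPM was 0.06 for Tead1, 0.06 for Wwtr1 and 0.07 for Yap1, against a median of 0.18 over all tested genes. These spreads lie at percentiles 3.16, 4.90 and 7.25. Tead4 and Cyr61 varied most among the 10, with SDs of 0.27 and 0.26 at percentiles 67.1 and 65.2.

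**Figure D1:**
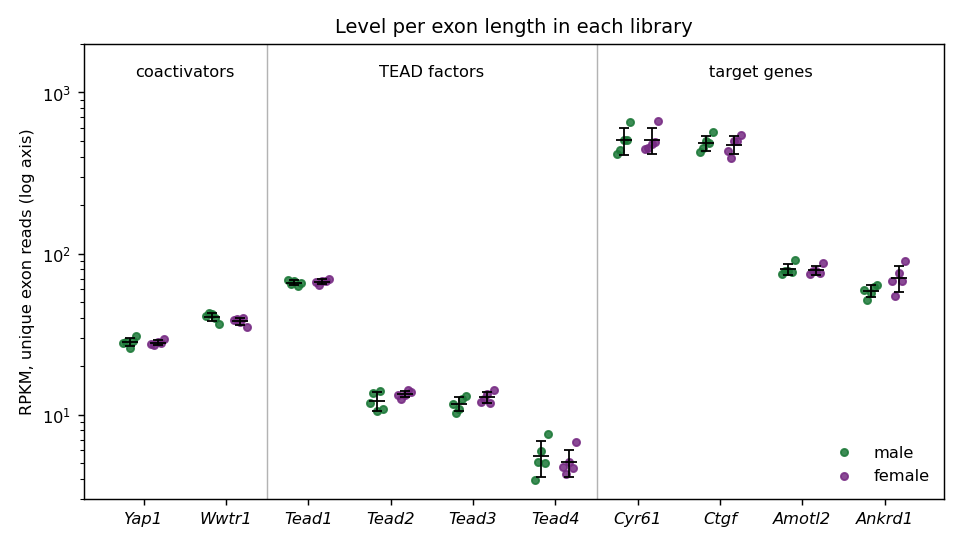
RPKM (log axis) of the 10 genes in each library, with male points to the left and female points to the right of each gene and, within a sex, replicates 1 to 5 from left to right; black bars are the mean and SD of 5 libraries. Ctgf and Cyr61 lie between 395 and 667 RPKM in every library, Tead1 lies between 63.0 and 69.6, and the sexes overlap for every gene.

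The target genes fell into a very high and a high pair. Cyr61 was at 506 ± 88.0 RPKM and Ctgf at 480 ± 53.8 RPKM (SD, n = 10), both at percentile 99.7 of the tested genes. Amotl2 was at 79.4 ± 5.52 RPKM, percentile 97.3, and Ankrd1 at 64.9 ± 11.4 RPKM, percentile 96.4. Cyr61 and Ctgf did not differ beyond their spread, with a log2 ratio of 0.07 ± 0.13 (SD; exact permutation test, adjusted p = 0.187). For Ctgf only 72.5% of the total gene reads were unique, between 69.7% and 75.3%, whereas the mean share was 97.15% for Yap1 and higher for each of the other 8 genes. With total exon reads Ctgf was above Cyr61 in 10 of 10 libraries, by a log2 ratio of Cyr61 to Ctgf of -0.39, and reads per junction gave -0.69. What the remaining Ctgf reads match was not tested. Ctgf was higher than Amotl2 in 10 of 10 libraries, by 2.59 on the log2 scale (exact permutation test, adjusted p = 0.0034), and Amotl2 was higher than Ankrd1 in 9 of 10, by 0.31 (exact permutation test, adjusted p = 0.0055).

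The share of unique gene reads inside introns, which come largely from unspliced RNA, was low for the target genes. It was 0.012% for Ctgf, 1.95% for Cyr61, 5.24% for Ankrd1 and 8.34% for Amotl2 (means, n = 10). For Yap1 it was 18.6%, for Tead3 23.1%, for Tead1 23.5% and for Wwtr1 26.1%, and the median of all tested genes was 23.1%. Tead2 had 6.18%. Tead4 had 61.6% ± 4.70, between 54.8% and 69.1%, so most of its gene reads lay outside exons and its CPM and RPKM measure different RNA. Gene length was not taken into account, and the Ctgf, Cyr61 and Ankrd1 genes are short. These shares leave out reads that are not unique, and for Ctgf only 72.5% of the total gene reads were unique. The intron share passed a test between the sexes for none of the 10 genes (two-sided exact permutation test, n = 5 per sex, smallest adjusted p = 0.976, where 0.00794 is the smallest p this design allows).

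Sex made no called difference to any of the 10 genes. The edgeR quasi-likelihood test called 0 of 10 at an adjusted p under 0.05, against 15 of 16602 genes (0.0904%) in the whole table. DESeq2 also called 0 of 10, against 0.422% of all genes. At an unadjusted p under 0.05 edgeR had 1 of 10, against 5.55% of all genes. The CPM ranges of the sexes overlapped for all 10 genes, and they did not overlap for 0.976% of all genes. The median log2 fold change, female minus male, was 0.0020 over the 10 genes and 0.0048 over all tested genes.

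Intervals of the difference bound what could have been missed. For Yap1 the 95% interval of the fold, female over male, ran from 0.927 to 1.08, for Wwtr1 from 0.894 to 1.04 and for Tead1 from 0.958 to 1.12. For Ctgf it ran from 0.846 to 1.11, for Amotl2 from 0.894 to 1.10, and for Cyr61, which varied more, from 0.803 to 1.245. The interval of Tead2 ran from 0.960 to 1.26, that of Tead3 from 0.970 to 1.20 and that of Tead4 from 0.747 to 1.18. In the authors' deposited table the false discovery rate was 1.0 for each of the 10 genes.

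Ankrd1 was the gene with an unadjusted p under 0.05. Its level was 77.4, 71.8, 76.5, 90.7 and 86.8 CPM in males 1 to 5, and 92.9, 77.8, 99.0, 94.6 and 123 CPM in females 1 to 5. Females 1, 3, 4 and 5 were above every male, and female 2 lay within the male range. The log2 fold change was 0.27 ± 0.10 (SE; edgeR, unadjusted p = 0.0214, adjusted p = 0.761), which does not pass over all genes. The authors' deposited table gives Ankrd1 a signed fold of 1.21 with a p of 0.0175 before correction. Of the 8 macrophage markers, 8 also had a positive log2 fold change, and 3 of them had an unadjusted p under 0.05, all higher in females (edgeR; 2.05% of all genes). Their summed level was 51.0 to 78.1 CPM in males and 44.4 to 103 CPM in females, and none was at 0 in all libraries. Their part in the Ankrd1 difference was not tested.

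**Figure D2:**
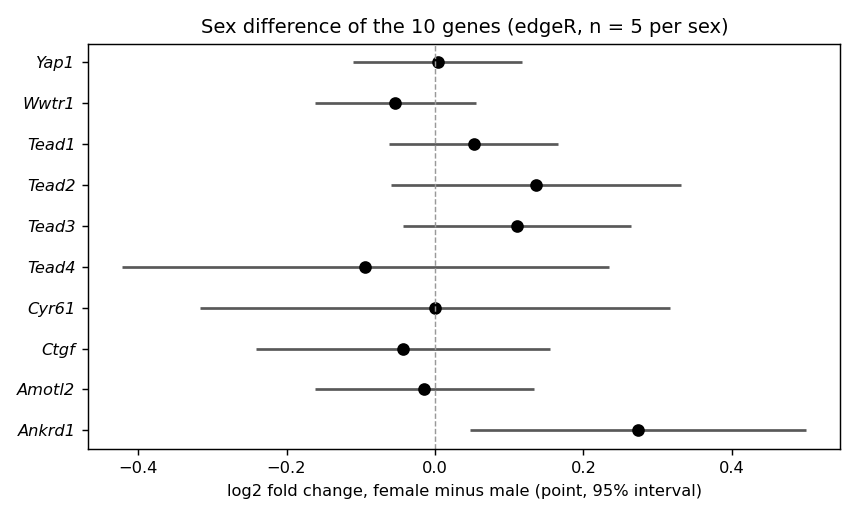
Log2 fold change of each gene, female minus male (points), with its 95% interval (lines), from edgeR with 5 libraries per sex. The interval of Ankrd1, from 0.05 to 0.50, is the one that leaves out 0, and its adjusted p over all genes is 0.761.

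Across libraries of both sexes, Cyr61 varied together with Ctgf and with Amotl2. Cyr61 was at 598, 677, 750, 832 and 993 CPM in males 1 to 5, and at 680, 719, 682, 761 and 1008 CPM in females 1 to 5. Ctgf was at 847, 971, 1034, 1106 and 1190 CPM in males 1 to 5, and at 919, 875, 991, 1068 and 1143 CPM in females 1 to 5. Amotl2 was at 362, 400, 387, 411 and 462 CPM in males 1 to 5, and at 382, 409, 376, 389 and 446 CPM in females 1 to 5. In all 3 genes the library numbered 5 was the highest of its sex, and male 1 was the lowest of the 10.

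**Figure D3:**
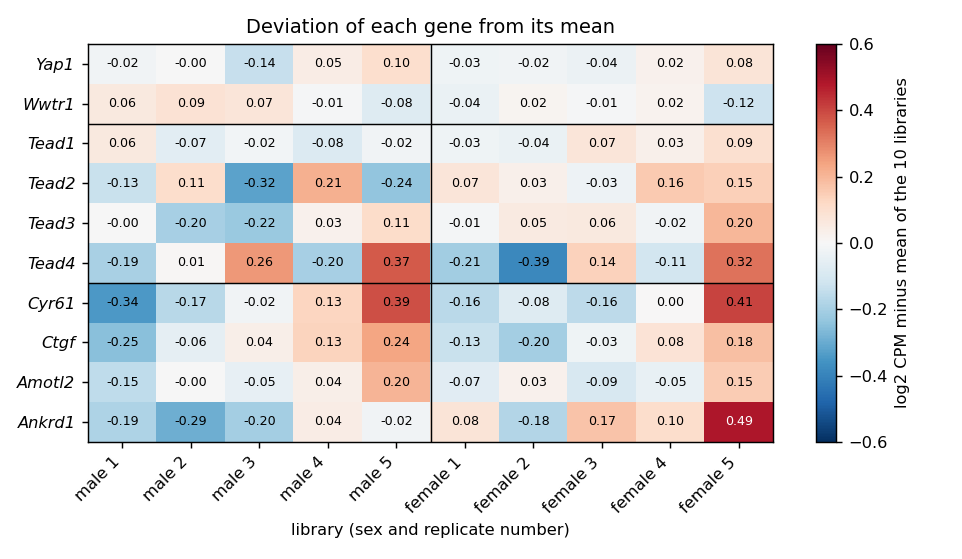
Log2 CPM of each gene (rows) in each library (columns) minus the mean of the 10 libraries, in color and as a number. Cyr61, Ctgf and Amotl2 are above their means in both libraries numbered 5, Wwtr1 is below its mean there, and Tead1 lies between 681 and 769 CPM throughout.

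Of the 45 pairs of the 10 genes, 4 passed a permutation test of Pearson's r at an adjusted p under 0.05, with 2 positive and 2 negative, and 13 had an unadjusted p under 0.05. Among all pairs of 10421 genes with a mean of at least 5 CPM, 1.44% had an r at least as far from 0 as the smallest of these 4. Cyr61 with Amotl2 had r = 0.93 (permutation test, adjusted p = 0.0106; Spearman's rho 0.79, adjusted p = 0.114). Ctgf with Cyr61 had r = 0.89 (permutation test, adjusted p = 0.0106; rho 0.90, adjusted p = 0.0342). The third pair of these genes, Ctgf with Amotl2, had r = 0.74, which did not pass (permutation test, adjusted p = 0.0997). Leaving out the 2 libraries farthest from the median on the x axis gave 0.75 for Cyr61 with Amotl2 and 0.78 for Ctgf with Cyr61. Without both libraries numbered 5 the values were 0.75 and 0.83, and 0 of 45 pairs passed over the remaining 8 libraries. Without male 1 none of the pairs passed either, with r between these genes at 0.90 and 0.85. Taken as deviations from the sex means, the values were 0.93 and 0.90. As deviations from the mean of the same-numbered libraries, r was 0.87 for Cyr61 with Amotl2 but 0.37 for Ctgf with Cyr61.

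Ankrd1 had no passing relation with the other targets. Its r was 0.57 with Cyr61, 0.51 with Ctgf and 0.35 with Amotl2. Without the libraries numbered 5 its r with Amotl2 was -0.14. The passing pair that held Ankrd1 was the negative one with Wwtr1, at r = -0.83 (permutation test, adjusted p = 0.0291; rho -0.77, adjusted p = 0.114). Wwtr1 was at 195, 199, 197, 187 and 177 CPM in males 1 to 5, and at 182, 189, 186, 190 and 172 CPM in females 1 to 5. The 2 lowest values of Wwtr1 were again in the libraries numbered 5. Without these the r of Wwtr1 with Ankrd1 was -0.83 over 8 libraries, which did not pass (exact permutation test, adjusted p = 0.197). Without female 5 alone it was -0.68, without male 1 -0.82 and without male 2 -0.79, and none of these passed (exact permutation test, adjusted p of 0.320, 0.0891 and 0.104). As deviations from the sex means it was -0.80 over 10 libraries and did not pass (exact permutation test, adjusted p = 0.0922).

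The other passing negative pair was Wwtr1 with Tead3, at r = -0.86 (permutation test, adjusted p = 0.0249; rho -0.83, adjusted p = 0.110). Tead3 was at 51.6, 44.9, 44.2, 52.5 and 55.6 CPM in males 1 to 5, and at 51.2, 53.5, 53.8, 50.9 and 59.2 CPM in females 1 to 5. Males 2 and 3 were the lowest for Tead3 and the highest for Wwtr1. Leaving out both libraries numbered 5 gave r = -0.75 over 8 libraries, which did not pass (exact permutation test, adjusted p = 0.237). It also did not pass without female 5 (-0.80), without male 1 (-0.91), without male 2 (-0.82) or as deviations from the sex means (-0.83), with adjusted p of 0.134, 0.0507, 0.089 and 0.0708 (exact permutation test). Yap1 and Wwtr1 had r = -0.68, which did not pass (permutation test, adjusted p = 0.111). Tead1 and Tead2 were in no passing pair. The coactivator Yap1 had r = 0.72 with Amotl2 and 0.66 with Cyr61, with adjusted p of 0.108 and 0.126 (permutation test). Tead4, whose gene reads are mostly intronic, had r = 0.71 with Ctgf (permutation test, adjusted p = 0.111).

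**Figure D4:**
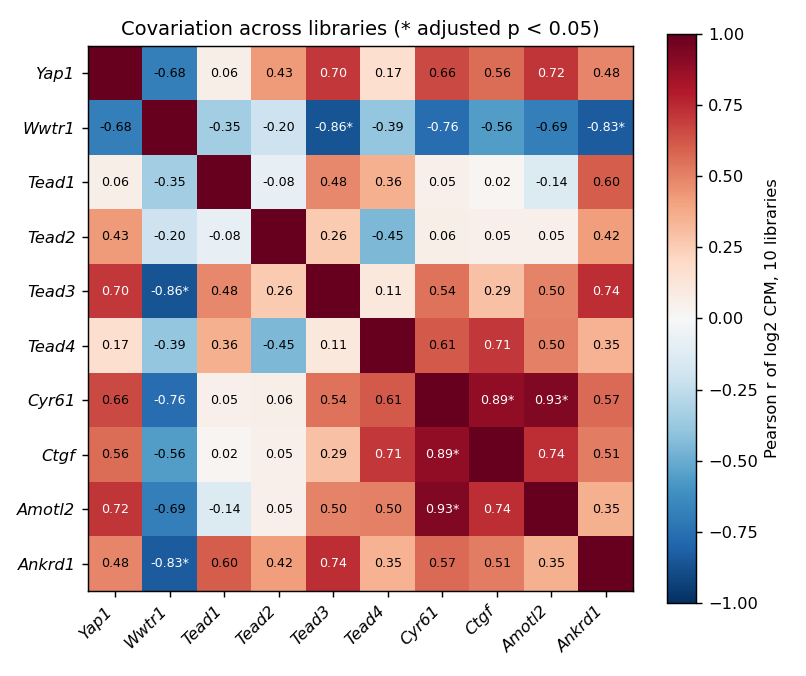
Pearson's r of log2 CPM between each 2 of the 10 genes over 10 libraries, with an asterisk where the permutation p adjusted over 45 pairs is under 0.05. Cyr61 is at 0.93 with Amotl2 and 0.89 with Ctgf, and Wwtr1 has a negative r with each of the other 9 genes.

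CTGF, CYR61 and their kind are known to answer also to SRF with its actin-sensing cofactor MRTF, to TGF-beta and to serum. The 4 target genes were therefore set against the mean log2 CPM of 9 gene lists, in 36 relations, of which 4 passed a permutation test of r and 12 had an unadjusted p under 0.05. Ctgf followed the MRTF-SRF target genes, which encode contractile and adhesion proteins, at r = 0.93 (permutation test, adjusted p = 0.0058; rho 0.94, adjusted p = 0.0104). Of the 18 genes on that list, 17 had a positive r with Ctgf, with a median of 0.81 against 0.02 over all tested genes. Vcl, the adhesion protein vinculin, had 0.87 and Flna, the actin crosslinker filamin A, had 0.68, whereas Zyx had 0.34, Fhl2 0.04 and Filip1l -0.23. Without the libraries numbered 5 the r of Ctgf with the list was 0.97 over 8 libraries (exact permutation p = 0.0001). In both sexes, Ctgf and the list mean were lower in libraries numbered 1 and 2 than in those numbered 3 to 5. No r from deviations from the mean of the same-numbered libraries is given here for relations with lists. Cyr61 had r = 0.76 with the same list, which did not pass (permutation test, adjusted p = 0.0534).

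Ctgf also followed the TGF-beta target genes at r = 0.91 (permutation test, adjusted p = 0.0058; rho 0.87, adjusted p = 0.0318). Here the members were divided, with 6 of 10 positive. Id1, an inhibitor of DNA binding, had r = 0.90 with Ctgf and Pmepa1 had 0.53, while Tgfbi had -0.39 and Tgfb1, the ligand itself, had -0.30. The lowest r with Ctgf, -0.71, was that of Bhlhe40, chosen after its values were seen. With exon reads in place of gene reads the r of this list was 0.81 and did not pass (permutation test, adjusted p = 0.072). The mean of the 17 measured genes of a list of other YAP/TAZ targets had no passing relation with the 4 genes. Its r was 0.27 with Ctgf, 0.0021 with Cyr61, -0.02 with Amotl2 and -0.57 with Ankrd1. Without the libraries numbered 5 these were 0.60, 0.44, 0.24 and -0.36. The members were divided, with 11 of 17 positive for Ctgf and 9 of 17 for Cyr61. Crim1 had 0.89 with Ctgf and 0.81 with Cyr61, whereas Gadd45a had -0.73 and -0.81. Both were chosen after their values were seen. The mean of the immediate early genes, the first answer to serum, had r = 0.03 with Ctgf, 0.06 with Cyr61 and 0.05 with Amotl2. Those low values rest on the libraries numbered 5. Without them r was 0.44, 0.84 and 0.84 (exact permutation test, unadjusted p of 0.268, 0.0065 and 0.0089). Over 10 libraries the members of this list were divided too. Of 16, 11 were positive for Ctgf, 12 for Cyr61 and 10 for Amotl2. Dusp1 had 0.85 with Ctgf and 0.88 with Cyr61, whereas Nr4a1, chosen after its values were seen, had -0.87 and -0.76. The mean of the 12 cell cycle genes had r = 0.77 with Ctgf and 0.75 with Ankrd1, and neither passed (permutation test, adjusted p = 0.0534 for both). Leaving out the libraries numbered 5 gave 0.95 and 0.51 (exact permutation test, unadjusted p of 0.00025 and 0.201).

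Ankrd1 had its 2 passing relations with markers of other cell types. With the 8 macrophage markers its r was 0.92 (permutation test, adjusted p = 0.0058; rho 0.81, adjusted p = 0.0434), and 8 of 8 markers had a positive r. Cd68, a lysosomal protein of macrophages, had 0.96, Lyz2, lysozyme, 0.85, Adgre1, the F4/80 antigen, 0.77, Fcgr3 0.60 and Ptprc 0.53. These markers were low, with Lyz2 at 39.8 ± 11.99 RPKM, Cd68 at 5.12 ± 1.41 and Ptprc, the CD45 antigen of blood cells, at 0.164 ± 0.057 (SD, n = 10). Without female 5 the r of Ankrd1 with the list was 0.84 and did not pass (exact permutation test, adjusted p = 0.117). Without both libraries numbered 5 it was 0.88 over 8 libraries (exact permutation test, adjusted p = 0.0464). With the 5 tested epithelial markers r was 0.83 (permutation test, adjusted p = 0.0179; rho 0.77, adjusted p = 0.0518), and 4 of the 5 had a positive r. Krt8 had 0.96, Krt18 0.62, Cdh1 0.33 and Krt19, the most abundant, 0.13, whereas Cldn4 had -0.43; Cdh1 is named to complete the list. This list did not pass with exon reads, at r = 0.76 (permutation test, adjusted p = 0.0796). Nor did it pass without female 5, at 0.80, without male 1, at 0.82, or without both libraries numbered 5, at 0.86 (exact permutation test, adjusted p of 0.128, 0.0515 and 0.084). Their summed level was 60.1 to 114 CPM in males and 61.9 to 88.7 CPM in females, none of the 8 listed was at 0 in all libraries, and Epcam, Krt5 and Krt14 were too low to test. Krt8 was low, at 0.73 ± 0.38 RPKM, and Cdh1 was at 0.037 ± 0.026, whereas Krt19 was at 50.9 ± 12.5 RPKM (SD, n = 10). The mean of the 4 tested muscle markers had r = 0.05 with Ankrd1, but its members were divided. Des, the muscle intermediate filament desmin and the most abundant of them, had r = 0.90, Actc1 had 0.35 and Tnnt2 0.24, whereas Ttn had -0.23. The summed level of the muscle markers was 73.2 to 134 CPM in males and 79.7 to 142 CPM in females. The other targets also had a positive r with the macrophage markers, at 0.60 for Ctgf, 0.62 for Cyr61 and 0.45 for Amotl2. With the epithelial markers r was 0.72, 0.64 and 0.49. None of these passed (permutation test, adjusted p of 0.171, 0.159 and 0.350, then 0.0871, 0.147 and 0.286). All 8 macrophage markers had a positive r with Ctgf and with Cyr61, and 7 with Amotl2. In bulk RNA more cells of a type and more RNA per cell cannot be told apart. The part of other cells in the values of Ankrd1 and the other targets was not tested.

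**Figure D5:**
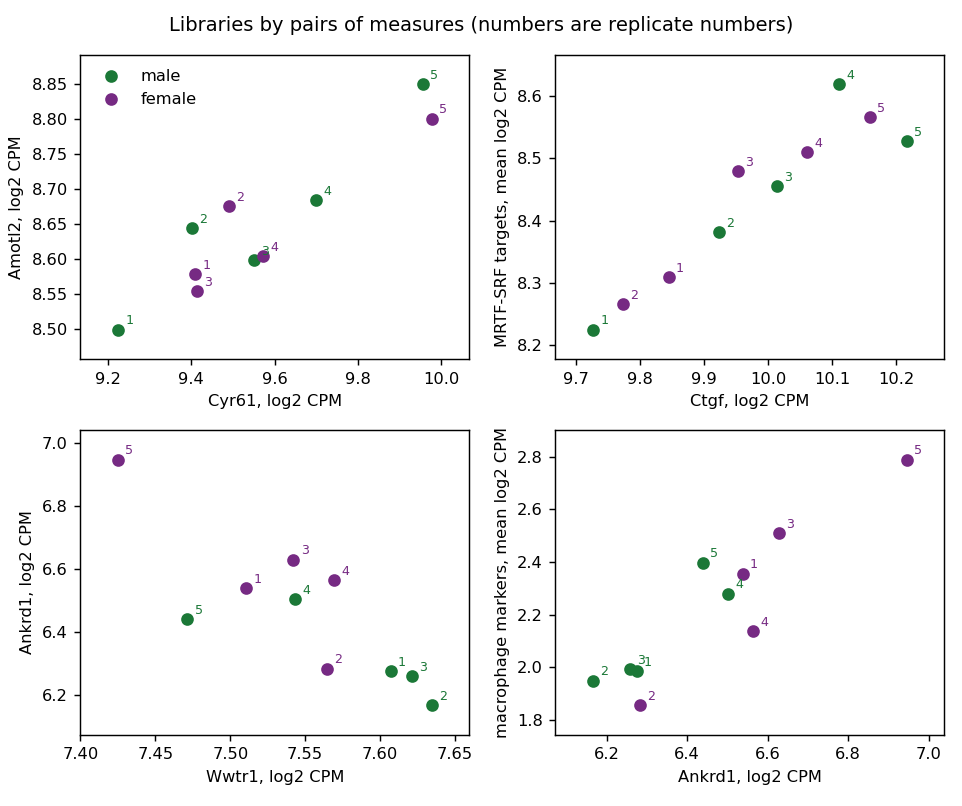
Each point is 1 library, with its replicate number, and all axes are log2 CPM, of 1 gene or as the mean over a list. Cyr61 with Amotl2 has its 2 highest points in the libraries numbered 5, Ctgf with the MRTF-SRF list has r = 0.93, Wwtr1 with Ankrd1 has r = -0.83, and Ankrd1 with the macrophage markers has r = 0.92 with female 5 highest on both axes.

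The genes whose levels ran closest to each target are given as a description over 10 libraries, among 10119 genes with a mean of at least 5 CPM. For Ctgf they were Cyp1b1 (r = 0.98), Ctps (0.98) and Palld, which encodes the actin-associated protein palladin (0.98). Cyp1b1 ran from 84.95 to 142 CPM in males and from 87.4 to 135 CPM in females. For Cyr61 they were Dr1 (0.99), Fscn1, which encodes the actin bundler fascin (0.98), and Rnf168 (0.96). Fscn1 ran from 413 to 660 CPM in males and from 455 to 703 CPM in females. For Amotl2 they were Snrpf (0.96), Csrp1 (0.94) and Phlda3 (0.93). For Ankrd1 they were Cd68 (0.96), Lcp1, the plastin of white blood cells (0.94), and Apoe (0.92). Cd68 ran from 3.84 to 5.15 CPM in males and from 3.77 to 8.05 CPM in females.

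Upstream of YAP and TAZ, 27 of 28 listed Hippo regulators were measured and 1 was not analysed here. Of these, 25 passed the filter, and Vgll1 and Vgll2, cofactors that bind TEADs, did not. None of the 25 was called between the sexes (edgeR, adjusted p), 1 was higher and 2 were lower in females at an unadjusted p under 0.05, against 2.05% and 3.49% of all genes, and their median log2 fold change was 0.0092 against 0.0048 over all genes. Per length, the kinase gene Map4k4 was at 60.4 ± 4.02 RPKM and the TEAD cofactor gene Vgll3, chosen after its values were seen, at 61.4 ± 4.73 RPKM (SD, n = 10). The core kinase genes Stk3, Stk4 and Lats1, also chosen after their values were seen, were at 10.0 ± 0.62, 13.0 ± 0.46 and 19.4 ± 0.75 RPKM. All 3 were therefore lower than Wwtr1 and Yap1. Vgll4, known as a repressor of TEAD activity and chosen in the same way, was at 9.09 ± 0.40 RPKM.

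Fat4, a giant cadherin of the upstream pathway, was at 99.9, 114, 128, 124 and 123 CPM in males 1 to 5, and at 88.4, 86.9, 97.9, 112 and 95.8 CPM in females 1 to 5. Its log2 fold change was -0.29 ± 0.08 (SE; edgeR, adjusted p = 0.472). The scaffold gene Rassf1 was at 51.6 to 54.5 CPM in males and 57.4 to 62.3 CPM in females, with no overlap, at a log2 fold change of 0.14 ± 0.05 (edgeR, adjusted p = 0.657). Amot, the angiomotin gene related to Amotl2, had -0.17 ± 0.08 (edgeR, adjusted p = 0.892), and the LIM protein gene Limd1 had 0.09 ± 0.05 (edgeR, adjusted p = 0.902). None of these 4 passed over all genes.

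Among the 17 measured genes of the list of other YAP/TAZ targets, 0 were called between the sexes, 0 were higher and 6 lower in females at an unadjusted p under 0.05, against 2.05% and 3.49% of all genes. The median log2 fold change was -0.05. Nt5e, which encodes the ectonucleotidase CD73, was at 5.89, 5.90, 9.93, 7.76 and 7.61 CPM in males 1 to 5, and at 3.58, 4.44, 3.91, 4.89 and 2.70 CPM in females 1 to 5. The sexes did not overlap for Nt5e, and its log2 fold change was -0.92 ± 0.17 (SE; edgeR, adjusted p = 0.0871). Dock5 had -0.17 ± 0.05, Tgfb2 -0.37 ± 0.14 and Ccdc80 -0.32 ± 0.12 (edgeR, adjusted p of 0.628, 0.757 and 0.772). Axl, a receptor tyrosine kinase and the most abundant gene of the list, was at 274 ± 10.8 RPKM (SD, n = 10) with a log2 fold change of 0.03 ± 0.06 (edgeR, adjusted p = 0.999). In the same libraries Ctgf, Cyr61 and Amotl2 had log2 fold changes between -0.04 and 0.0002, and Ankrd1 had 0.27. The difference between those targets and the genes of this list was not tested.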

How the data were processed

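Per the file headers, the table that the authors deposited holds raw read counts in whole numbers for 52550 genes in each library: unique and total reads in genes, exons, introns and across exon junctions. The submitters' processing notes name mm10. No source used here names the aligner or says whether counting used strand. The authors also deposited a p-value and false discovery rate for each gene and a signed fold (a score without values between -1 and 1) from a test that the file headers name EDGE. Not used were 80 other columns with values per library.

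Gene coordinates were matched to GENCODE M21 by gene ID (Ctgf and Cyr61 are Ccn2 and Ccn1 there). Unique gene reads were filtered with filterByExpr (minimum count 10), scaled by TMM and tested with edgeR 4.0.16 in R 4.3.3 (robust quasi-likelihood fit, sex as the only term, two-sided, Benjamini-Hochberg over 16602 genes). Standard errors were derived from the log2 fold change and the F statistic. RPKM used unique exon reads and exon length. Log2 CPM for correlations had a prior count of 2; permutation tests had 100000 resamples for 10 libraries and were exact below that (scipy 1.17.1). On simulated data for this comparison, with 50 of 16359 genes changed per fold size, edgeR recovered 28%, 72%, 96% and 100% of genes changed 1.25, 1.5, 2 and 4-fold, while 5.7% of calls fell on genes left unchanged. DESeq2 1.42.0, other scalings, filters and read classes, the replicate block and leaving out each library were the alternatives; junction reads and leaving out both libraries numbered 5 were added after the data were seen.

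The members, the lists and the tests were chosen with earlier results of these data known. Named are all 10 genes, up to 4 genes of smallest p and the most abundant gene of the lists described, and the 3 genes most alike to each target without a predicted-model symbol; other genes are said to be chosen later, and 1 gene that the rule names is not reported here. The lists for endothelial cells and fibroblasts had 0 calls between the sexes, as had all 11 lists.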

Additional observations from a re-analysis of the deposited data

Results flagged for a closer look

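The Cyr61 level of female replicate 5, at 1007.79 CPM, lay far above the other 4 female libraries, which were between 680 and 761 CPM. Its gap to the next library was 0.751 of the whole range, above the critical value of 0.71 for 5 samples. It was the 1 case among 40 groups tested (CPM and intron share of 10 genes in each sex), and chance alone flags about 1 in 20 groups, or 2 here. Male replicate 5 was the highest male for Cyr61 as well, at 993 CPM.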

How the results depend on the processing

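The count of genes called between the sexes, 0 of 10, was the same under all 18 alternatives, the replicate block included. For Ankrd1 the block gave a log2 fold change of 0.26 (edgeR, unadjusted p = 0.00089, adjusted p = 0.159). Leaving out single libraries gave Ankrd1 between 0.18 and 0.34, with a smallest adjusted p of 0.507 (edgeR). Log2 fold changes near 0 changed sign: Yap1 was -0.0017 with upper quartile factors, -0.0104 with exon reads and between -0.0282 and 0.0298 when each library was left out; Cyr61 was -0.0050 with upper quartile factors, -0.0026 with the stricter filter of 1 CPM in 5 libraries, -0.0019 with total reads and between -0.1138 and 0.1084 without single libraries. Leaving out single libraries gave between -0.1033 and 0.0140 for Ctgf and between -0.0546 and 0.0370 for Amotl2. The log2 ratio of Cyr61 to Ctgf was -0.39 with total exon reads and -0.69 with junction reads, which also gave -0.41 for Wwtr1 to Yap1 and 0.34 for Tead2 to Tead3.

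The number of passing pairs, 4, was 8 with exon reads, 2 with deviations from the sex means, between 0 and 8 without single libraries and 0 without both libraries numbered 5. Leaving out single libraries gave r between 0.85 and 0.94 for Ctgf with Cyr61, between 0.62 and 0.87 for Ctgf with Amotl2 (0.82 with total reads, which passed), between 0.90 and 0.95 for Cyr61 with Amotl2 and between -0.0170 and 0.49 for Ankrd1 with Amotl2. Without both libraries numbered 5 these were 0.83 for Ctgf with Cyr61, 0.75 for Cyr61 with Amotl2 and -0.14 for Ankrd1 with Amotl2. The number of passing relations with lists, 4, was 2 with exon reads, 8 with deviations from the sex means, between 2 and 6 without single libraries and 7 without both libraries numbered 5. The cause of these changes was not tested.

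Over 1000 genes as a set, the r between same-numbered libraries was low (0.07, -0.0037, 0.0017, 0.01 and 0.19 for numbers 1 to 5). Numbers 1 and 5 matched their own number best. The numbers were therefore not taken to pair the samples. That check does not decide the question for single genes. From number 1 to number 5, Ctgf rose in males (847 to 1190 CPM) and in females (919 to 1143 CPM). Cyr61 also rose in both, from 598 to 993 and from 680 to 1008 CPM. Tead1 fell in males (750 to 709 CPM) and rose in females (707 to 769 CPM). With the replicate block edgeR called 43 of all genes between the sexes, against 15 without it. Whether the number carries shared variation for the genes described was not tested. With the replicate block, 0 pairs passed, where 5 pairs allow no p below 0.0625. The block gave r = 0.37 for Ctgf with Cyr61 (0.89 without the block) and -0.28 for Ctgf with Ankrd1 (0.51 without). It gave 0.87 for Cyr61 with Amotl2 (0.93 without) and -0.23 for Ankrd1 with Amotl2 (0.35 without).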
